A study of Mus musculus with 16 samples.

Results

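Macrophage genes were followed in primary mammary tumors of mice with and without a gene trap in *Resf1*. A set of 10 genes was taken by symbol, with no rule on measured values: *Adgre1*, *Csf1r*, *Csf1*, *Cd68*, *Mrc1*, *Cd163*, *Arg1*, *Trem2*, *C1qa* and *Lyz2*. All 10 are among the 23609 gene IDs of the deposited table, and all 10 passed the filter on low values that left 21034 genes for testing. After adjustment over all tested genes, 0 of the 10 and 0 of all 21034 genes passed the test between the groups. Several of the 10 varied together from tumor to tumor.

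Every tumor of both groups carried MMTV-PyMT, a transgene in which the MMTV promoter drives the polyoma middle T antigen in mammary epithelium. The wildtype group (wildtype x PyMT) had no other allele, and the gene trap group (gene trap x PyMT) was heterozygous for a lentiviral gene trap in the first exon of *Resf1*, labelled Resf1 +/-, which also encodes an EGFP-cre fusion. The groups were littermates, the trap came from 1 mouse line, it is carried in the germline and is therefore present in macrophages as well as in tumor cells, and no treatment is named. Age is not given in the labels. Values from 5 tumors of each group were used, out of 8 of each in the labels, and each value is an estimated count that the authors had scaled by median ratio, called here a normalized value. The totals of these values lay between 31995078 and 42153593 per tumor, and the sequencing depth behind them is unknown.

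*Resf1* itself had mean normalized values of 4099 ± 400 and 3516 ± 361 (SD, n = 5 each) in the wildtype and the gene trap group, a log2 fold change of -0.22 (SE 0.09). Its exact two-sided permutation p was 0.0635, and its limma p was 0.0313 before and 0.9997 after Benjamini-Hochberg adjustment over all tested genes. The 2 groups overlapped. Gene trap replicate 1, at 4029, lay above wildtype replicates 3 and 5, and gene trap replicate 3, at 3686, above wildtype replicate 5, at 3517. One library stood apart. On the first principal component of all tested genes, with 31.1% of the variance, gene trap replicate 2 was at 91.8 and the other 9 tumors were between -18.6 and -4.78. Values without it are given for some of the results below. For *Resf1*, which was lowest in this library at 3066, the fold change without it was not computed.

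Tumor-associated macrophages derive from blood monocytes and from macrophages resident in the mammary gland. They depend on the receptor Csf1r, a tyrosine kinase of the myeloid lineage, and on its ligands Csf1 and Il34, and in the PyMT model Csf1 is known as a factor that recruits macrophages to the tumor. *Adgre1* encodes F4/80, the classical surface marker of mouse macrophages, *Cd68* a lysosomal membrane glycoprotein and *Lyz2* lysozyme M. *Mrc1* (CD206, the mannose receptor) and *Cd163* (the haptoglobin-hemoglobin scavenger receptor) mark alternatively activated and tissue-resident macrophages, and *Arg1* encodes arginase 1, which splits arginine into ornithine and urea. *Trem2*, a lipid-sensing receptor, and *C1qa*, a chain of the complement protein C1q, mark a widespread state of tumor macrophages. Some of these genes are not limited to macrophages: epithelium and fibroblasts can make Csf1, and neutrophils express *Lyz2*. In bulk tumor RNA, fewer macrophages and less RNA per macrophage cannot be told apart.

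Myeloid promoters are often bound by PU.1, a factor of the ETS family, and the promoters of *Mrc1* and *Cd163* are shown because these genes varied together more closely than almost any other pair, with that of *Csf1*, the member that varied least, for contrast. A table of RefSeq start sites on GRCm38.p6 matched 6 of the 10 members, namely *Csf1*, *Cd68*, *Mrc1*, *Cd163*, *Trem2* and *Lyz2*. For *Cd163* and *Cd68* the bases after the RefSeq start were not found near the beginning of a GENCODE release 21 transcript of the gene, so these windows rest on RefSeq alone. Each sequence runs 5′ to 3′ on the strand of its gene over the 250 bases before the start, and capitals mark the PU.1 core GAGGAA or its reverse complement TTCCTC. Mrc1 is at chr2:14229164-14229413 on the plus strand, Cd163 at chr6:124304401-124304650 on the plus strand and Csf1 at chr3:107760470-107760719 on the minus strand.
Mrc1: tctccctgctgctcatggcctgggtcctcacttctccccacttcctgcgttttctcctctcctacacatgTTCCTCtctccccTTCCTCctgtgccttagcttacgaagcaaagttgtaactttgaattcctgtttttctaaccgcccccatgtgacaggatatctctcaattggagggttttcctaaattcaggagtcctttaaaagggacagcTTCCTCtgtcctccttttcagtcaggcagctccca
Cd163: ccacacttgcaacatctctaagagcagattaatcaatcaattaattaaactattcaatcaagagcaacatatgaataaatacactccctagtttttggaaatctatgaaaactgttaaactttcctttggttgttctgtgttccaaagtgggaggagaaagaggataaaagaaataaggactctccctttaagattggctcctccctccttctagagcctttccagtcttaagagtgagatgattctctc
Csf1: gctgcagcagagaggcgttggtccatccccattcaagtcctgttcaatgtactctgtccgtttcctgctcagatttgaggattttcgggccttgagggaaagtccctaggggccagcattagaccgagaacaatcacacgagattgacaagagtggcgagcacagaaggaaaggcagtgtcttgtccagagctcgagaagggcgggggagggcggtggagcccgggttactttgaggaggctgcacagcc
The *Mrc1* window held the core 3 times, each as TTCCTC, and the windows of *Cd163* and *Csf1* held none. The windows of *Cd68* and *Trem2* held 1 each and that of *Lyz2* held none, and of all 32851 windows of this length in the table, 23.3% held at least 1. The AP-1 motif TGANTCA, which 6.7% of all windows hold on either strand, was found 2 times for *Cd68* and 1 time for *Trem2*, and the MAF motif TGCTGAC, in 3.8% of all windows, was found in none of the 6. No match printed in capitals overlaps another searched motif, and a match is a description of the sequence only.

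The first question was whether tumors with the gene trap differ in the receptor and ligand on which macrophages depend. *Csf1r* was at 1933, 1533, 2283, 1925 and 2359 in wildtype replicates 1 to 5 and at 2465, 1831, 1875, 1649 and 1772 in gene trap replicates 1 to 5. The highest of all 10 tumors was thus gene trap replicate 1, the lowest was wildtype replicate 2, and the groups overlapped over most of their range. The means were 2007 ± 331 and 1919 ± 317 (SD, n = 5 each), with a log2 fold change, on the log2(value + 1) scale used throughout, of -0.06 (SE 0.13, 95% interval -0.35 to 0.22) with an exact two-sided permutation p of 0.675 and an adjusted limma p of 0.9997. *Csf1*, the ligand, was at 948, 1257, 1106, 1012 and 1122 in the wildtype tumors and at 1127, 1133, 1136, 1196 and 1047 in the gene trap tumors. It was the steadiest member, with a coefficient of variation of 8.0% over the 10 tumors, and 12.6% of the tested genes varied less. Its means of 1089 ± 118 and 1128 ± 53.3 (SD, n = 5 each) gave a log2 fold change of 0.06 (SE 0.08, 95% interval -0.13 to 0.24), exact permutation p = 0.468. In fold terms that interval was 0.916 to 1.18. The second ligand, *Il34*, was far lower than *Csf1*, at 76.6 to 129 in wildtype and 76.2 to 158 in gene trap tumors.

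**Figure D1:**
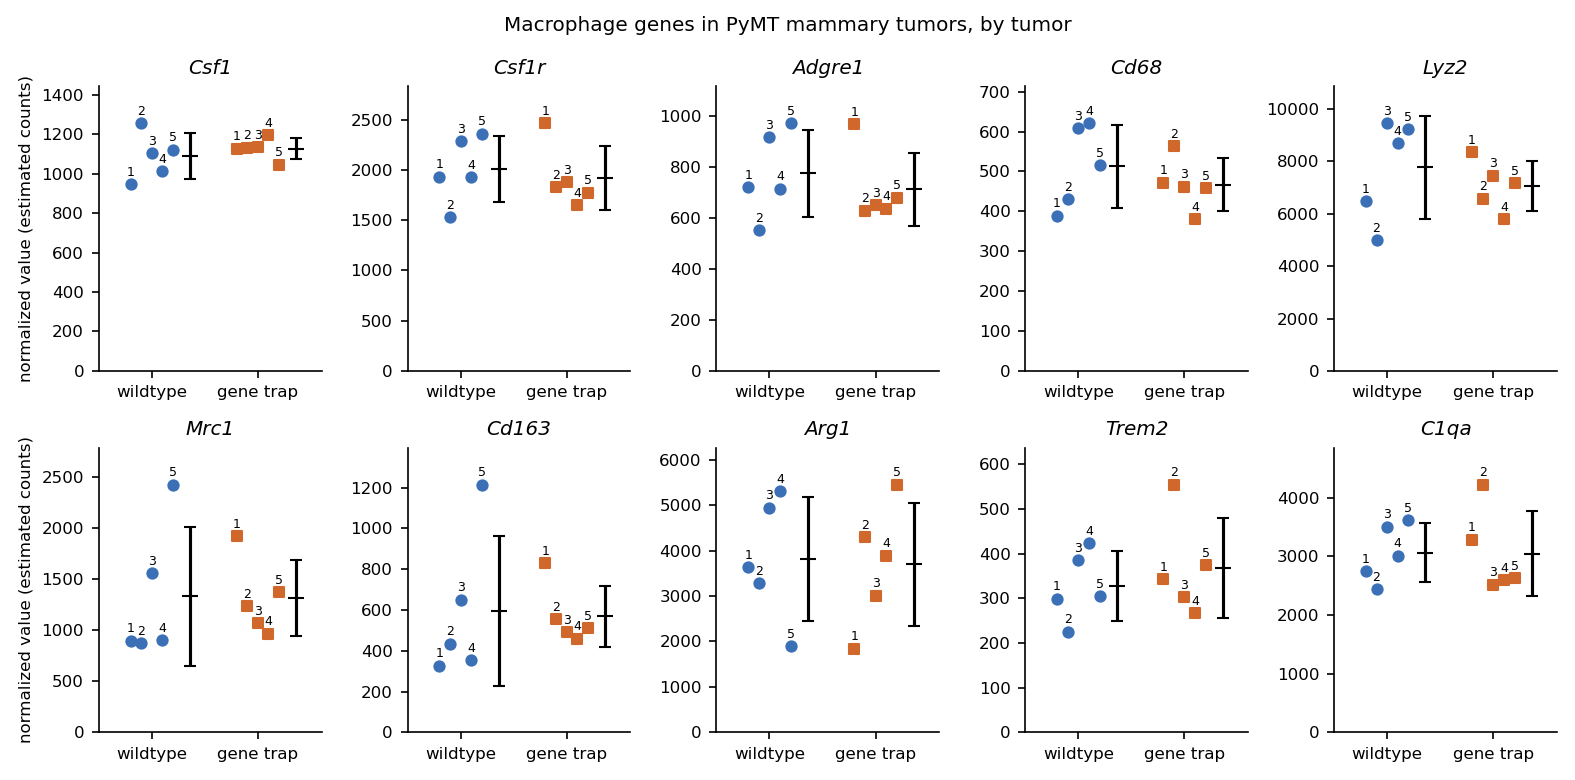
Normalized value (linear axis from 0) of each of the 10 macrophage genes in each tumor, with 1 point per tumor marked by its replicate number (n = 5 per group), wildtype as blue circles and gene trap as orange squares; the black marks beside them are the group mean and SD. The groups overlap for every gene, *Csf1* has the narrowest spread, and *Mrc1*, *Cd163* and *Arg1* have the widest.

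The pan-macrophage genes gave the closest view of macrophage RNA in the tumors, and none of them passed the test either. For *Adgre1* the wildtype tumors were at 719, 551, 914, 714 and 970 and the gene trap tumors at 966, 627, 648, 635 and 678. Gene trap replicate 1 was just below the highest wildtype tumor, and the other 4 gene trap tumors lay between the lowest wildtype tumor and the next. The means of 774 ± 169 and 711 ± 144 (SD, n = 5 each) gave a log2 fold change of -0.11 (SE 0.16, 95% interval -0.47 to 0.24), exact permutation p = 0.595. *Cd68* was at 389, 430, 608, 621 and 516 in wildtype and at 472, 564, 462, 380 and 458 in gene trap tumors, and both its highest and next highest values were in wildtype tumors, replicates 4 and 3. Its log2 fold change was -0.12 (SE 0.15, 95% interval -0.44 to 0.20), exact permutation p = 0.421, the smallest p of the 10 members. *Lyz2*, which had the largest values of the members, was at 6476, 4994, 9462, 8694 and 9235 in wildtype and at 8355, 6581, 7451, 5797 and 7162 in gene trap tumors. The gene trap tumors fell inside the wildtype range, with means of 7772 ± 1952 and 7069 ± 957 (SD, n = 5 each) and a log2 fold change of -0.11 (SE 0.17, 95% interval -0.48 to 0.27), exact permutation p = 0.611.

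*Mrc1*, *Cd163* and *Arg1*, the genes linked with alternative activation, varied most over the 10 tumors. *Mrc1* was at 897, 872, 1559, 902 and 2424 in wildtype and at 1918, 1237, 1067, 967 and 1375 in gene trap tumors. *Cd163* was at 327, 435, 650, 354 and 1214 in wildtype and at 828, 555, 492, 459 and 512 in gene trap tumors. The same 3 tumors, wildtype replicate 5, gene trap replicate 1 and wildtype replicate 3, were the highest for both genes and in that order. The highest tumor exceeded the lowest 2.78 fold for *Mrc1* and 3.71 fold for *Cd163*, and the coefficient of variation of *Cd163*, 45.5%, was larger than that of 93.2% of the tested genes, whose median was 17.6%. The group means were 1331 ± 676 and 1313 ± 373 for *Mrc1* and 596 ± 368 and 569 ± 149 for *Cd163* (SD, n = 5 each), slightly lower in gene trap tumors. On the log2 scale, which gives less weight to high values, the log2 fold changes were above 0, at 0.07 for *Mrc1* (SE 0.28, 95% interval -0.55 to 0.68, exact permutation p = 0.849) and 0.08 for *Cd163* (SE 0.32, 95% interval -0.60 to 0.77, exact permutation p = 0.833). Both depended on single tumors. Without wildtype replicate 5 they were 0.32 and 0.39, with an adjusted limma p of 0.9999 for each. Leaving out a single tumor turned the sign in 4 cases for *Mrc1* and in 3 for *Cd163*. One of these was wildtype replicate 1, without which they were -0.04 and -0.09.

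*Arg1* was at 3640, 3278, 4942, 5308 and 1895 in wildtype and at 1842, 4291, 3006, 3885 and 5450 in gene trap tumors. Its lowest tumors were gene trap replicate 1 and wildtype replicate 5, the tumors highest for *Mrc1* and *Cd163*, and each group held tumors near both ends of the range. With means of 3812 ± 1370 and 3695 ± 1358 (SD, n = 5 each), the log2 fold change was -0.05 (SE 0.31, 95% interval -0.72 to 0.63), exact permutation p = 0.905. For these 3 genes the intervals were wide. In fold terms they were 0.684 to 1.6 for *Mrc1*, 0.658 to 1.71 for *Cd163* and 0.606 to 1.55 for *Arg1*. Differences within each gene's interval could not be told from none.

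*Trem2* and *C1qa* were both highest in gene trap replicate 2, the library that stood apart. *Trem2* was at 299, 225, 385, 423 and 304 in wildtype and at 343, 554, 302, 267 and 374 in gene trap tumors. *C1qa* was at 2744, 2446, 3503, 3009 and 3616 in wildtype and at 3285, 4221, 2519, 2590 and 2624 in gene trap tumors. Apart from replicate 2, the gene trap tumors lay within the wildtype range for both genes. The log2 fold change of *Trem2* was 0.16 (SE 0.21, 95% interval -0.30 to 0.61, exact permutation p = 0.54) with all tumors and 0.00 without gene trap replicate 2, and that of *C1qa* was -0.02 (SE 0.15, 95% interval -0.36 to 0.31, exact permutation p = 0.913) with all tumors and -0.15 without it.

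In this library the excess followed transcript length across all genes. Among protein-coding genes with a GENCODE transcript under 1000 bases (919 genes), its median log2 deviation from the other tumors was 0.46, against -0.16 to 0.08 in the other 9 libraries, and among the longest genes (4611 genes) it was -0.07, against -0.03 to 0.04. Among the macrophage genes, *Trem2* (1088 bases) and *C1qa* (1040 bases) deviated by 0.86 and 0.62, *Csf1r* (4701 bases) by -0.07 and *Adgre1* (3238 bases) by -0.19. *Lyz2*, with 1316 bases, went the other way at -0.18. Other short macrophage transcripts varied there. *C1qb*, a chain of C1q with a transcript as long as that of *Trem2*, was at 2418, inside the range of the other tumors (deviation 0.25), whereas *C1qc*, the remaining chain, was at 3096 (1602 to 2281 elsewhere), and *Tyrobp*, the signaling adaptor of Trem2, at 1168 (528 to 893 elsewhere). Values in this library also followed GC content (Spearman rho 0.22 across 20536 genes). *Trem2* and *C1qa* had 57.5% and 59.5% GC and *Lyz2* 48.3%, against a median of 49.3% over tested genes. After correction for GC content the deviations were 0.60 for *Trem2*, 0.35 for *C1qa* and -0.17 for *Lyz2*. The parts that transcript length and GC content had in the values of *Trem2* and *C1qa* were not tested.

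**Figure D2:**
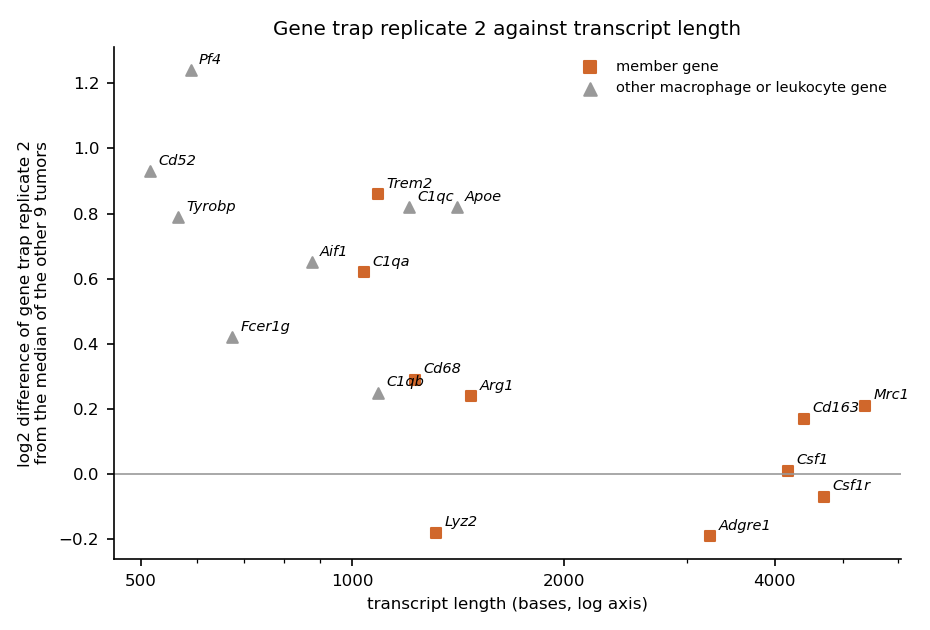
Log2 difference of gene trap replicate 2 from the median of the other 9 tumors (vertical axis) against transcript length in bases (horizontal log axis), for the 10 macrophage genes (orange squares) and 8 other macrophage or leukocyte genes (gray triangles). *Trem2* and *C1qa*, at 0.86 and 0.62, are the highest members and have the shortest transcripts among them, while *Lyz2* lies at -0.18.

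Across the 10 members, 4 log2 fold changes were above 0 and 6 below, against 51.4% and 48.6% of all tested genes, and their median was -0.03, against 0.0047 over all genes. At an adjusted limma p under 0.05, 0 of 10 members and 0 of 21034 genes (0%) were called, and at an unadjusted p under 0.05, 0 of 10 members and 479 genes (2.28%, made up of 1.32% higher and 0.956% lower in gene trap tumors). The groups overlapped for 10 of 10 members, while 0.528% of all genes had groups that did not overlap. Limma p lay between 0.43 and 0.891, and the exact two-sided permutation p, which can be no smaller than 0.00794 with 5 against 5 tumors, between 0.421 and 0.913. The labels name separate tumors, so these p values cover the spread between tumors. A p above the threshold does not show that the groups are equal, and the 95% intervals give the differences that the data allow.

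**Figure D3:**
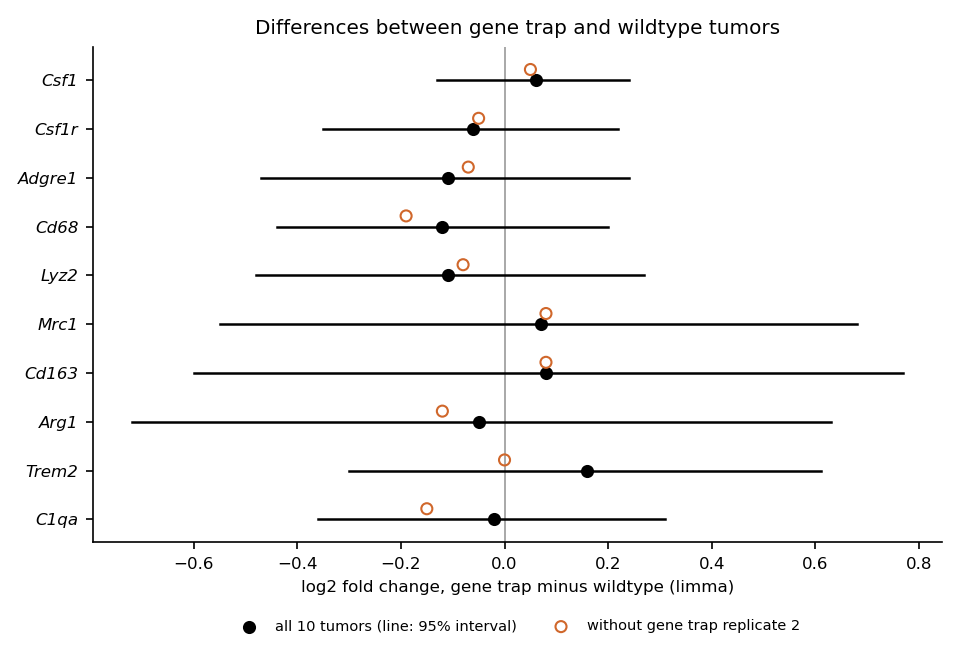
Log2 fold change of each macrophage gene, gene trap against wildtype, with the 95% interval from limma over all 10 tumors, (black) beside the value without gene trap replicate 2 (open circle). All intervals include 0; *Csf1* has the narrowest and *Cd163* the widest, and *Trem2* moves from 0.16 to 0.00.

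To compare levels between the genes, mean values were divided by the length of the main GENCODE transcript. Per 1000 bases the level was 5639 ± 1137 (SD, n = 10) for *Lyz2*, 2938 ± 563 for *C1qa* and 2541 ± 872 for *Arg1*, and then fell to 417 ± 65.7 for *Csf1r*. *Lyz2* was above *C1qa* in 10 of 10 tumors, *C1qa* was above *Arg1* in only 7 of 10, and *Arg1* was above *Csf1r* in all 10 with no overlap of their ranges. The remaining levels per 1000 bases were 398 ± 69.2 for *Cd68*, 320 ± 85.7 for *Trem2*, 265 ± 21.2 for *Csf1*, 246 ± 95.8 for *Mrc1*, 229 ± 46.9 for *Adgre1* and 132 ± 60.2 for *Cd163*. Among these lower genes the ranges of neighbors in the order overlapped, and *Adgre1* was above *Cd163* in 10 of 10 tumors. *Csf1r* exceeded *Cd68* in 6 tumors, *Cd68* exceeded *Trem2* in 9, *Trem2* exceeded *Csf1* in 8, *Csf1* exceeded *Mrc1* in 6 and *Mrc1* exceeded *Adgre1* in 5.

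The macrophage genes did not vary independently of each other. Over the 10 tumors the log2 values of *Csf1r* and *Adgre1* had a Pearson r of 0.97 (Spearman rho 0.93), and 0.94 without wildtype replicate 5 and gene trap replicate 1, the tumors farthest from the median. The r was 1.0 within the 5 wildtype and 0.94 within the 5 gene trap tumors, and 0.00951% of all tested genes had a higher r with *Adgre1* than *Csf1r* had. The pair of *Mrc1* and *Cd163* had r = 0.96 (rho 0.95), 0.86 without the same pair of tumors, with 0.019% of all genes closer to *Mrc1*. *Csf1r* and *Lyz2* had r = 0.87 (rho 0.77), and 0.90 without those tumors. *C1qa* had r = 0.60 (rho 0.64) with *Csf1r* over all tumors and 0.91 without gene trap replicate 2. Among the 8 members other than *Arg1* and *Csf1*, r was above 0 in 28 of 28 pairs, between 0.06 and 0.97 with a median of 0.6. *Arg1* and *Csf1*, whose r with other members went down to -0.66 and -0.38, were left out with these values known. The count of 28 therefore describes the remaining members only and is no test, and the share of positive pairs among all genes was not computed. These correlations describe 10 tumors that share their library preparation and a scaling, and they carry no p.

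**Figure D4:**
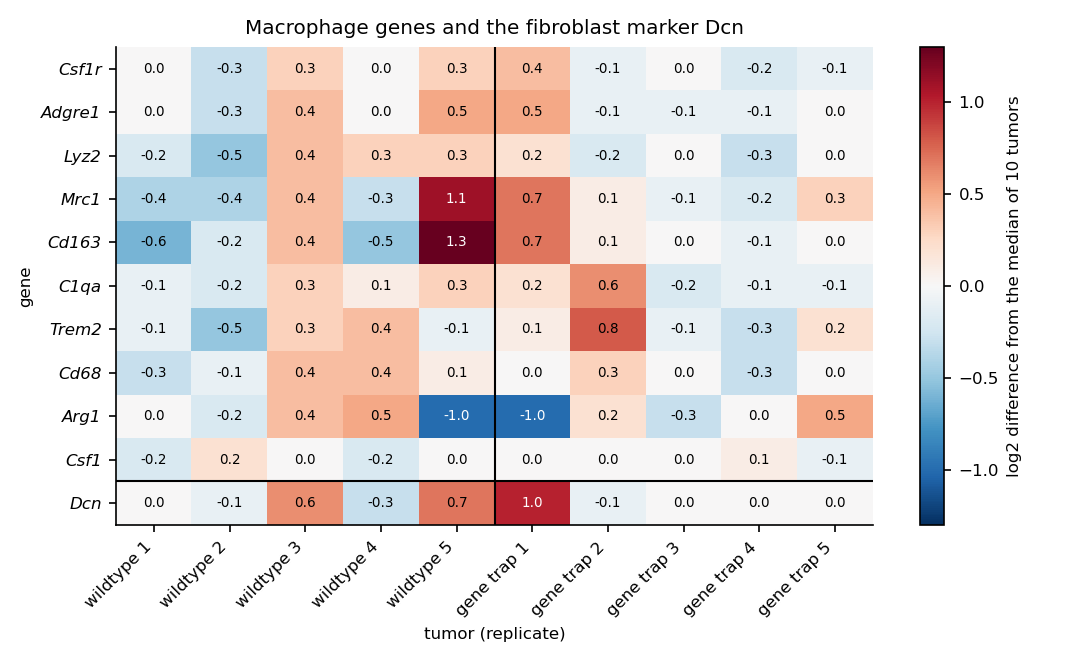
Log2 value of each macrophage gene in each tumor minus the median of that gene over the 10 tumors (color scale, log2 units), with tumors in columns and genes in rows, and the fibroblast marker *Dcn* in the bottom row. *Mrc1* and *Cd163* are high in wildtype replicate 5, gene trap replicate 1 and wildtype replicate 3, *Arg1* is low in the first pair of these, and *Csf1* is nearly flat.

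*Csf1* and *Arg1* were the members left out of this group. The r of *Csf1* with the other members lay between -0.38 and 0.33. That of *Arg1* lay between -0.66, with *Cd163*, and 0.40. The negative relation of *Arg1* and *Cd163* (rho -0.32) rested on wildtype replicate 5 and gene trap replicate 1, since r was 0.19 without them. It was similar in both groups, -0.69 in wildtype and -0.76 in gene trap tumors, each of which holds 1 of those tumors.

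**Figure D5:**
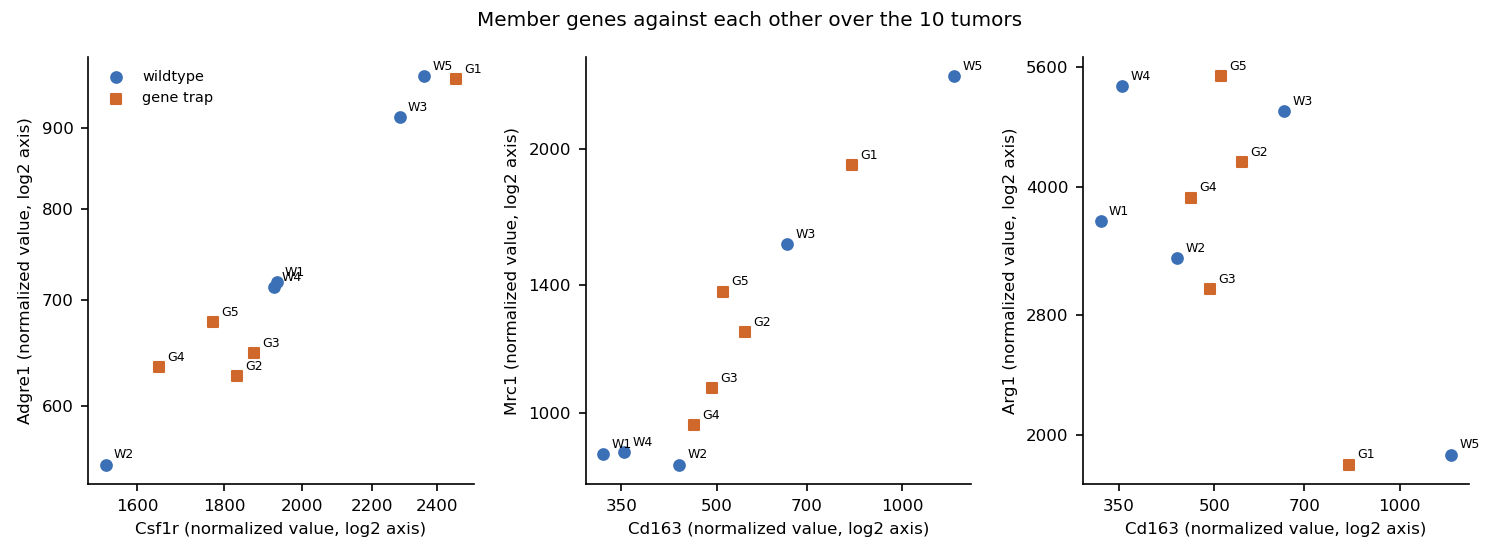
Normalized values of pairs of macrophage genes over the 10 tumors (log2 axes), *Adgre1* against *Csf1r*, *Mrc1* against *Cd163* and *Arg1* against *Cd163*, with wildtype tumors (W1 to W5) as circles and gene trap tumors (G1 to G5) as squares. The first pairs lie along a line (r = 0.97 and 0.96), and W5 and G1 stand alone at high *Cd163* and low *Arg1*.

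Some stroma markers were high in the same tumors as *Cd163*. *Dcn*, the matrix proteoglycan decorin of fibroblasts, was at 2052, 1918, 3249, 1697 and 3434 in wildtype and at 4246, 1997, 2094, 2009 and 2113 in gene trap tumors. Its 3 highest tumors were the 3 highest for *Csf1r*, *Adgre1*, *Mrc1* and *Cd163*, and its r was 0.84 with *Cd163*, 0.88 with *Mrc1*, 0.86 with *Csf1r* (rho 0.77, 0.84 and 0.68), and 0.70, 0.77 and 0.67 without wildtype replicate 5 and gene trap replicate 1. With *Arg1* it was -0.66 (rho -0.43), but 0.18 without that pair of tumors. The summed level of the 5 fibroblast markers ran from 18271 to 38123 in wildtype and from 26317 to 57154 in gene trap tumors, highest in gene trap replicate 1 and then in wildtype replicate 5. In wildtype replicate 3 that sum was 31617, below wildtype replicates 1 and 2 (34815 and 32668), with *Col1a1*, a collagen chain, at 9224 against 13161 and 12426. *Adipoq*, the fat cell hormone adiponectin, was at 573 in wildtype replicate 3, 443 in wildtype replicate 5 and 286 in gene trap replicate 1, with 50.8 to 242 elsewhere, and it was the single adipocyte marker of 5 in the table. The part of stroma or fat pad in the macrophage values was not tested. Values followed GC content in several tumors, with a Spearman rho across 20536 genes from -0.34 to 0.28. It was -0.27 in wildtype replicate 5, -0.34 in gene trap replicate 1 and -0.25 in wildtype replicate 1, where *Cd163* was low. After correction for GC content, *Cd163* lay 1.29 above the median of the other tumors in wildtype replicate 5 (1.3 before). It lay 0.73 above in gene trap replicate 1 (0.75 before). *Arg1* was at -1.08 and -1.12 in these tumors (-1.04 and -1.08 before). The part of GC content in these values was not tested.

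By a fixed rule, the 5 named protein-coding genes with the highest r over the 10 tumors were listed for 3 members. For *Csf1r* they were *Adgre1* (0.97), *Tlr8* (0.97), *Slc9a9* (0.97), *Cped1* (0.95) and *Col14a1* (0.93). For *Arg1* they were *Csad* (0.95), *Wbp1* (0.94), *Ercc2* (0.94), *Inppl1* (0.93) and *Tollip* (0.93), none of which is a member, and for *Csf1* they were *Zmynd19* (0.96), *Kcnk6* (0.93), *Kat14* (0.92), *Slc25a30* (0.91) and *Cd72* (0.91). In each case these are the first 5 of 14020 ranked genes, and no p is given. The 5 beside *Arg1* had 53.3%, 58.6%, 59.1%, 57.0% and 50.1% GC, in the order named, against 47.7% for *Arg1* itself. Those beside *Csf1r* had 47.2%, 40.1%, 47.6%, 44.5% and 50.7%, against 54.5% for *Csf1r*. The median over tested genes was 49.3%. The part of GC content in these r values was not tested.

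A second comparison asked whether macrophage genes differed per unit of *Csf1r* transcript, with each tumor's log2 *Csf1r* value subtracted. At an adjusted limma p under 0.05, 0 of 9 members and 0 of 21033 genes (0%) were called, and at an unadjusted p under 0.05, 0 members and 255 genes (1.21%, made up of 0.951% higher and 0.261% lower). The members' median was 0.04 and that of all genes 0.07, with 68.8% of all genes above 0 and 31.2% below, against 6 and 3 of the 9 members. The ratio of *Adgre1* to *Csf1r* was 0.359 to 0.411 in wildtype and 0.342 to 0.392 in gene trap tumors, with a log2 difference of -0.05 (SE 0.16, 95% interval -0.39 to 0.28). *Trem2* had a difference of 0.22 (SE 0.22, 95% interval -0.25 to 0.69), which was 0.05 without gene trap replicate 2, with ratios of 0.129 to 0.22 in wildtype and 0.139 to 0.303 in gene trap tumors. The ratio of *Arg1* to *Csf1r* spanned 0.803 to 2.76 and 0.747 to 3.08, and its log2 difference was 0.02 (SE 0.34, 95% interval -0.69 to 0.72).

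Wider macrophage programs and markers of other cell types were read from 17 lists of 146 other genes. Of these genes, 130 had a value and 122 were tested. None of the 122 reached an unadjusted limma p under 0.05 in either direction, against 2.28% of all genes. Taking all these cell types together, 43 were above 0 and 79 below, against 51.4% and 48.6% of all tested genes. Genes of the same cell type can rise and fall together, so the 122 are not independent, and no test was run on these counts. The median log2 fold change of the 122 was -0.06, against 0.005 over all genes. In the CSF1R axis list 3 genes were above 0 and 7 below, and the one with the largest mean, *Cebpb*, a myeloid transcription factor, was at 1966 ± 436 in wildtype and 1962 ± 426 in gene trap tumors (SD, n = 5 each). Of 16 pan-macrophage genes, 3 were above and 13 below 0 (median -0.08), led by *Mpeg1*, the pore-forming perforin-2, at 4716 ± 547 and 4375 ± 335. Their summed levels overlapped, at 19186 to 22753 in wildtype and 17705 to 22420 in gene trap tumors.

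Complement and lipid genes showed 3 above and 9 below 0. Their most abundant member *Spp1*, osteopontin, ranged from 28936 to 83324 in wildtype but only from 33959 to 43134 in gene trap tumors, with a log2 fold change of -0.25 (SE 0.25). Bulk RNA does not show which cells the transcripts of this list came from. In the resident-macrophage list 3 were above and 9 below, and *Selenop*, the selenium carrier selenoprotein P, was at 7826 ± 1685 and 7110 ± 406. The alternative-activation list had 2 above and 7 below, with *Tgm2*, transglutaminase 2, at 5751 ± 596 and 5664 ± 891, and the inflammatory list 3 above and 9 below, with *Ccr2*, the monocyte chemokine receptor, at 625 ± 253 and 618 ± 136. Of the 7 arginine metabolism genes, which act beside Arg1, 5 were above and 2 below, and *Oat*, ornithine aminotransferase, was at 2006 ± 114 and 2166 ± 308 (log2 fold change 0.10, SE 0.09). The smallest p among the macrophage lists belonged to genes chosen here after their values were seen: *Cd14*, the lipopolysaccharide co-receptor, with 3372 ± 695 and 2729 ± 167 (log2 fold change -0.28, SE 0.13), and *Il1b*, the cytokine interleukin-1 beta, with 150 ± 60.6 and 97.3 ± 39.9 (-0.61, SE 0.33). Both had an adjusted limma p of 0.9997.

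Markers of other cells were present at levels that set the macrophage values in context. Among these other cells the 6 tumor epithelium markers had the largest sums, 75054 to 96089 in wildtype and 78494 to 99253 in gene trap tumors. *Krt18*, a keratin of luminal cells, was highest in gene trap replicate 2 at 35379. Sums over lists of unequal size do not measure the amounts of the cells. The 6 pan-leukocyte genes summed to 11003 to 12612 and 9684 to 13253, with *Lcp1*, the leukocyte actin-bundling protein, at 8363 ± 286 and 7681 ± 886. Neutrophil markers were low in most tumors, 228 to 873 in wildtype and 271 to 2034 in gene trap tumors, and *S100a8*, a neutrophil calcium-binding protein, reached 1962 in gene trap replicate 2, while its partner *S100a9* was at 49.1 there and highest, at 565, in gene trap replicate 3. T and NK cell markers summed to 89 to 277 and 93 to 435 (*Cd4* at 53.9 ± 20.8 and 60.5 ± 45.6), B and plasma cell markers to 22 to 214 and 17 to 364 (*Jchain* at 62.7 ± 73.7 and 48.2 ± 76.6), and dendritic cell markers to 256 to 550 and 372 to 654 (*Zbtb46* at 316 ± 94.0 and 336 ± 29.4). Of the other groups, endothelial markers were below 0 in 5 of 5 (*Pecam1* at 1235 ± 281 and 1137 ± 303), mast cell markers in 4 of 4, counting *Kit*, which luminal epithelium also expresses, at 7962 ± 1084 and 7625 ± 623, and fibroblast markers were above 0 in 5 of 5 (*Col1a2* at 15459 ± 3877 and 18386 ± 6852), with no gene of them past the unadjusted threshold.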

How the data were processed

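Total RNA of primary mammary tumors was sequenced by stranded total RNA-seq. The authors deposited 1 table of estimated counts per gene, already normalized by median ratio, so the values are a signal and not raw counts. The submitters' processing notes name STAR (version 2.7.8a), Partek, DESeq2 and mm39. The annotation and the counter are not given in the sources used here. Of 16 columns of values, 10 were matched to a tumor by name (Con and Hypo with a replicate number, where the paper's name hypomorph is the gene trap), and 6 were not used. The table held 0 zeros, and columns differed in scale by median ratios of 0.999 to 1.008. Whole reads could not be recovered, the depth is unknown, and no interval that needs it is given.

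Genes with a mean of at least 10 were taken as log2(value + 1) and analysed in limma (version 3.58.1) under R 4.3.3, using a mean-variance trend and group as the factor. P values were adjusted by Benjamini-Hochberg over all tested genes. Single genes were also compared by exact two-sided permutation (scipy version 1.17.1). Members and lists were chosen with earlier results of these data known, and no set test was run. The genes named are the members, *Resf1*, the gene of largest mean in each list with none past the unadjusted threshold, and the 5 genes most like *Csf1r*, *Arg1* and *Csf1*. Others named were chosen after their values were seen. Symbols were found for 22899 of 23609 IDs (97.0%). Lengths and GC content are from GENCODE mouse release 21, which is not the build of the table, so no gene coordinates are given beyond the RefSeq start windows. The fit was tested on simulated data. Alternatives were other pseudocounts and filters, quantile normalization, no variance trend, tumor weights, each tumor left out, the replicate number as a block, GC correction and the removal of the tumors at both ends of the first principal component. Figures were drawn with matplotlib (version 3.10.9).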

Additional observations from a re-analysis of the deposited data

Results flagged for a closer look

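In 22 groups of 5 values (the 10 members and *Resf1*, in each group), Dixon's test at 95% marked 3, where chance would mark about 1.1. All 3 were gene trap replicate 1: *Csf1r* at 2465, where the group's other tumors lay at 1649 to 1875, *Adgre1* at 966 (627 to 678 in the others), and *Cd163* at 828 (459 to 555). These genes rise and fall together, so the 3 marks are not independent of each other. The same tumor had the highest *Dcn*, at 4246.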

How the results depend on the processing

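Over 21 alternatives, 0 genes were called between the groups, 0 of 210 member values passed the threshold (lowest unadjusted limma p 0.0807), and 188 kept their direction. The median of the members stayed between -0.09 and 0.05. Relative to *Csf1r*, 0 of 189 member values passed and 175 kept their direction. Leaving out each tumor in turn gave ranges of -0.23 to -0.03 for *Adgre1*, -0.16 to 0.00 for *Csf1r*, -0.08 to 0.32 for *Mrc1*, -0.09 to 0.39 for *Cd163*, -0.28 to 0.18 for *Arg1*, 0.00 to 0.26 for *Trem2*, -0.15 to 0.04 for *C1qa*, -0.26 to -0.02 for *Lyz2*, -0.21 to -0.05 for *Cd68* and 0.01 to 0.11 for *Csf1*, and relative to *Csf1r* of -0.07 to -0.02 for *Adgre1*, 0.05 to 0.33 for *Trem2*, 0.03 to 0.32 for *Mrc1*, 0.05 to 0.26 for *Csf1*, -0.14 to 0.03 for *Cd68*, -0.02 to 0.39 for *Cd163*, -0.28 to 0.34 for *Arg1*, -0.10 to 0.10 for *C1qa* and -0.10 to 0.02 for *Lyz2*. Weights per tumor turned *Trem2* to 0.00 and, relative to *Csf1r*, *C1qa* to -0.02. The removal of a pair of tumors and the GC correction, alone or with the block, were chosen after seeing the data. The replicate block by itself was planned. Without wildtype replicate 5 and gene trap replicate 2, the lowest and the highest tumor on the first principal component (-18.6 and 91.8), *Adgre1* was at 0.01, *Csf1r* at 0.01, *Mrc1* at 0.33, *Arg1* at -0.35 and *Trem2* at -0.02, and relative to *Csf1r* *Adgre1* was at 0.00, *Cd68* at -0.20, *Arg1* at -0.37, *Trem2* at -0.03 and *C1qa* at -0.10, with 3 genes called relative to *Csf1r* in place of 0. GC correction called 0 genes. The deviations of same-numbered tumors had correlations of -0.16 to 0.15, over 0.1 in 2 of 5 pairs. So few pairs cannot show whether the numbers pair the tumors, and the labels do not say. With the replicate number as a block, 0 genes were called between the groups and 23 relative to *Csf1r*, and 43 with the block and GC correction, none of them a member. The cause was not tested. No depth could be set beside these values.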

Other observations

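Of the 12 tested genes of the resident-macrophage list, 7 had the same 3 highest tumors as *Cd163* (*Lyve1*, *Folr2*, *Vsig4*, *Cd209a*, *Mgl2*, *F13a1* and *Selenop*) and 5 did not (*Cd209f*, *Clec10a*, *Gas6*, *Pf4* and *Stab1*). *Lyve1* was at 293 in wildtype replicate 5, 215 in wildtype replicate 3 and 183 in gene trap replicate 1, with 69.5 to 175 elsewhere. *Gas6* was highest in wildtype replicates 4 and 2, at 6542 and 4986, and *Pf4* in gene trap replicate 2, at 149. They were looked up after the pattern had been seen and are given as values.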
